A study of Mus musculus with 2 samples.

Results

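The nuclear receptors described here are a list of 38 mouse genes, chosen by symbol as members of the family. The rule uses no measured value, though earlier results of these data were known when the list was made. All 38 were found, by identifier, among the 43346 mouse gene rows of both libraries. The list does not hold every member of the family. Livers of B6NCrl mouse embryos aged 14.5 days gave 2 total RNA libraries, 1 per biological replicate, so there is 1 group and no treatment, mutant or second tissue. At this age the liver is also the main site of blood formation, so its RNA comes from hepatoblasts, blood precursors and supporting cells together. The labels describe each sample as a single liver and give its sex as pooled male and female. They do not say how both hold.

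Nuclear receptors are transcription factors that bind DNA through a pair of zinc fingers and bind small, mostly fat-soluble ligands through a separate domain. Steroid receptors wait in complexes with chaperones until hormone arrives, whereas receptors for thyroid hormone, retinoic acid, oxysterols and fatty acids bind DNA paired with a retinoid X receptor (RXR) and exchange corepressors for coactivators when ligand binds. Orphan members such as the COUP-TF genes have no settled ligand. In the adult liver the family is known for its control of cholesterol, bile acid, glucose and drug metabolism.

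Of the 38 genes, 17 reached 1 TPM in both livers, 21 in neither and 0 in only one of them. TPM is a share of all transcripts that allows for transcript length, so levels of different genes can be compared. The share reaching 1 TPM in both was 44.7% of the receptor genes, beside 49.2% of protein-coding gene rows (10567 of 21474). The receptors were mostly low. The median over all 38 was 0.72 TPM in replicate 1 and 0.725 in replicate 2, and the median gene mean was 0.71 TPM, beside 1.05 TPM for protein-coding rows. Among genes reaching 1 TPM in both livers, the median mean was 2.51 TPM for receptors and 10.2 TPM for protein-coding genes, and 13 of the 17 receptors lay below that of the protein-coding genes. The 38 levels summed to 106 TPM in replicate 1 and 120 in replicate 2 (113 ± 9.85, SD, n = 2). Nr1h2, Nr2f6, Nr3c1 and Nr1h3 together took 65.5% of that sum in replicate 1 and 64.6% in replicate 2.

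The libraries held 39998450 expected counts (estimated reads) in replicate 1 and 28848861 in replicate 2, of which 10669 and 8546 lay on the receptor genes. Markers of hepatoblasts (Afp, Alb, Ttr, Hnf4a) and of red cell precursors, macrophages, megakaryocytes, neutrophils, endothelium and mesenchyme all reached 1 TPM in both livers. So did Kit, Mcpt8 and Cpa3, listed for mast cells, with Mcpt8 at 12.6 TPM in replicate 1 and 3.51 in replicate 2. None of the 3 markers each of neural tissue, adrenal cortex, gut and pancreas reached 1 TPM in both livers. Of the receptors, 28 had at least 10 reads in both livers, 6 had between 1 and 9 in at least one, and 4 had 0 in both. In bulk tissue, fewer cells of a type and less RNA per cell cannot be told apart. The Poisson and binomial intervals and the floors cover counting error only, while the authors' intervals were deposited, and the libraries' amplified reads need not be independent molecules.

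Promoter windows are shown for 3 receptor genes, because the transcripts of Pparg and Rarg from alternative starts differed widely in level and because the Rarb window holds a well-known receptor site. Each runs from 250 bases before to 50 bases after a transcription start of the RefSeq annotation (build GRCm38.p6), and windows were found for 34 of the 38 genes. The first line is a window at chr6:115360894-115361193, on the plus strand, at a start 193 bases from that annotated for Pparg-202, the transcript to which all Pparg reads were assigned. A further Pparg window, not shown, lies 1398 bases from that start. Capitals in the first line mark AGGTCA, the core element bound by many receptors, which begins 28 bases before the start used for that line. The second is at chr6:115421816-115422115, plus strand, at the start of Pparg-201, to which no read was assigned. Its capitals mark CCAAT at 144 and 22 bases before the start. The next pair are at chr15:102246451-102246750 and chr15:102257473-102257772, both on the minus strand, at the starts of Rarg-202 and Rarg-201. Capitals mark AGATAA in the window of Rarg-202, 146 bases before the start. In that of Rarg-201 they mark GGGCGG or its reverse complement at 138, 133 and 35 bases before the start, where the first pair overlap by 1 base. The last is at chr14:16575427-16575726, minus strand, and its capitals mark a direct repeat that matches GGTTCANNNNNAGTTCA, beginning 53 bases before the Rarb start.
Pparg, window nearest Pparg-202: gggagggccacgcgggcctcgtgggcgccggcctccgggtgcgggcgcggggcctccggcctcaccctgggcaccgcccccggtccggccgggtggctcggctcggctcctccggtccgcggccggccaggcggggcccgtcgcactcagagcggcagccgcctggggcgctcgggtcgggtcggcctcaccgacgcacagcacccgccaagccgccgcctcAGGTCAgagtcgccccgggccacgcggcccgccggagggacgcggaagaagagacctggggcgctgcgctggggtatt
Pparg, window of Pparg-201: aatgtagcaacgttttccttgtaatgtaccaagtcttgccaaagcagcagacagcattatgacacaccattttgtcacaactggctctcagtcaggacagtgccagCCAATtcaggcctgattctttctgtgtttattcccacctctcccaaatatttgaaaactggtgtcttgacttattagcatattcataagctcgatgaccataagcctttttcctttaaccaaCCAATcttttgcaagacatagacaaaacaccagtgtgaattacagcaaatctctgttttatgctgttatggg
Rarg, window of Rarg-202: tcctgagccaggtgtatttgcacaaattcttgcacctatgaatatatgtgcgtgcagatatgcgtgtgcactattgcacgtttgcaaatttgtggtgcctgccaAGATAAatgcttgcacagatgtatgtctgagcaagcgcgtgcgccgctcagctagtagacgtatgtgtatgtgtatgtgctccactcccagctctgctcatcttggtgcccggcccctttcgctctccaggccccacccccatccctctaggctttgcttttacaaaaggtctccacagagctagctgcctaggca
Rarg, window of Rarg-201: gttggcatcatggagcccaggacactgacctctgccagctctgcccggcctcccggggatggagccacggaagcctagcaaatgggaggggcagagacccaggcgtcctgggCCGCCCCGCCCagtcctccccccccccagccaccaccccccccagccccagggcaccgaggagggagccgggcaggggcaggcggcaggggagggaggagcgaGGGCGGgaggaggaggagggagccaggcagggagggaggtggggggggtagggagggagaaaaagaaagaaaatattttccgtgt
Rarb: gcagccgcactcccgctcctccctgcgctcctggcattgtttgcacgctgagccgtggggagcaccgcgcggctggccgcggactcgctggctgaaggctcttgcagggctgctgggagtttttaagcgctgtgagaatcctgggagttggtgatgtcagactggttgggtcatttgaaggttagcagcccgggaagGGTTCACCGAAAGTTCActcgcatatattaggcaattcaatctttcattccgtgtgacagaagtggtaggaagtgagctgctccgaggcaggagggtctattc

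The motifs were searched on both strands of all 32851 RefSeq promoter windows of this length. AGGTCA lay in 16.3% of windows, CCAAT in 37.4%, GGGCGG in 35.7% and AGATAA in 11.2%, so a match to one of these short motifs is common. The spaced repeat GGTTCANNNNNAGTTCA, the form known from the retinoic acid response element of Rarb, lay in 2 windows, those of Rarb and of Gm52524. As these are the letters of the Rarb element itself, the match in Rarb was fixed by their choice. Spaced repeats with other letters were not searched, so their frequency is not known here. The Pparg windows nearest Pparg-202 held 44 CpG dinucleotides in the one shown and 13 in the one not shown, and each held AGGTCA, while the window of Pparg-201 held 2 CpG. The windows of Rarg-202 and Rarg-201 held 10 and 12. A match describes letters and shows no binding.

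**Figure D1:**
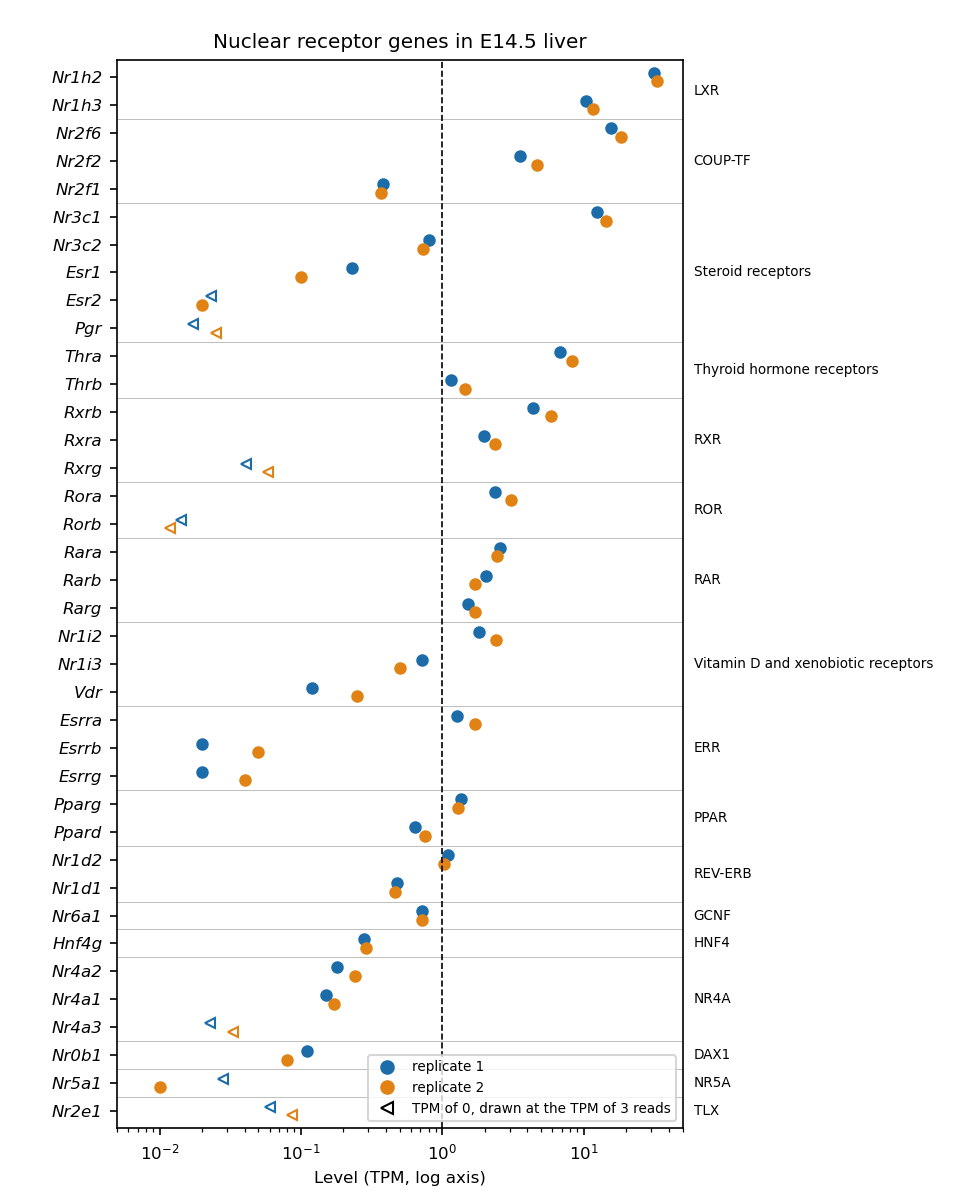
Level of each of the 38 receptor genes in replicate 1 and replicate 2, in TPM on a log axis, ordered by receptor group. The dashed line marks 1 TPM, open triangles stand for a TPM listed as 0 and are drawn at the TPM that 3 reads would give, and Nr1h2 lay highest in both livers.

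The oxysterol receptors (LXR) were the most abundant group. They sense oxidised cholesterol and control genes of cholesterol export and fatty acid synthesis. Nr1h2, which encodes LXR beta, the widely expressed form (ENSMUSG00000060601.8, chromosome 7, 44549616 to 44553951, mm10, minus strand), was at 31.2 TPM in replicate 1 and 33.1 in replicate 2, from 2199 and 1708 reads. Nr1h3, which encodes LXR alpha, the form known for adult liver and macrophages (ENSMUSG00000002108.6, chromosome 2, 91184061 to 91202834, minus strand), was at 10.3 and 11.7 TPM. LXR beta thus held 75.1% of the LXR sum in replicate 1 and 73.9% in replicate 2, and the pair held 39.1% and 37.3% of all receptor TPM. The exact Poisson intervals of Nr1h2, 29.9 to 32.6 TPM in replicate 1 and 31.6 to 34.7 TPM in replicate 2, overlapped. Those of Nr2f6 (14.7 to 16.5 and 17.4 to 19.6 TPM), described below, did not. The same held for Nr3c1 (12.0 to 13.0 and 13.7 to 15.1 TPM) and for Thra, Rxrb and Nr2f2. The authors' intervals did overlap for Nr3c1 (11.7 to 13.6 and 13.5 to 15.8 TPM) and for Thra. This comparison was not made over all genes, so it cannot be called a trait of the receptors.

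Of the 5 listed steroid receptor genes only Nr3c1, which encodes the glucocorticoid receptor, reached 1 TPM in either liver. Nr3c1 (ENSMUSG00000024431.10, chromosome 18) was at 12.5 TPM in replicate 1 and 14.4 in replicate 2, from 2091 and 1677 reads, and held 93.4% ± 1.44 (SD, n = 2) of their summed TPM. The mineralocorticoid receptor gene Nr3c2, which responds to aldosterone and also binds glucocorticoids, was at 0.80 and 0.73 TPM. The oestrogen receptor alpha gene Esr1 was at 0.23 TPM in replicate 1 and 0.10 in replicate 2, from 48 and 13 reads. Esr2, which encodes oestrogen receptor beta, had 0 and 2 reads. The progesterone receptor gene Pgr had 0 reads in both, where 3 reads would have given 0.0174 TPM in replicate 1 and 0.0250 in replicate 2.

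Among the COUP-TF genes, orphan receptors known mainly as repressors, the 3 members were widely separated. Nr2f6, also called EAR2 (ENSMUSG00000002393.10, chromosome 8, 71374123 to 71381960, minus strand), was at 15.6 TPM in replicate 1 and 18.5 in replicate 2. Nr2f2, which encodes COUP-TFII and is known from venous endothelium and mesenchyme, was at 3.55 and 4.66 TPM. Nr2f1, which encodes COUP-TFI, was at 0.38 and 0.37 TPM. Nr2f6 held 79.2% ± 0.904 of the group's TPM.

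Both thyroid hormone receptor genes reached 1 TPM, with the alpha gene well above the beta gene, which is known as the main form of adult liver. Thra (ENSMUSG00000058756.9, chromosome 11, 98740638 to 98769006, plus strand) was at 6.77 TPM in replicate 1 and 8.22 in replicate 2. Thrb was at 1.15 and 1.45 TPM. Thra held 85.2% ± 0.336 of their sum.

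The RXR genes encode the shared partner of the receptors that bind DNA as heterodimers. Rxrb (ENSMUSG00000039656.12, chromosome 17, 34031812 to 34038399, plus strand) was at 4.38 TPM in replicate 1 and 5.84 in replicate 2, and Rxra, the form known as predominant in adult liver, at 1.96 and 2.36 TPM. Rxrg, known from muscle and brain, had 0 reads in both livers, with a floor of 0.0409 and 0.0589 TPM at 3 reads. The RXR sum was 6.34 TPM in replicate 1 and 8.20 in replicate 2. A chosen set of 14 listed genes whose products can pair with RXR summed to 60.6 and 66.0 TPM. This was 9.56-fold and 8.04-fold the RXR sum (8.80 ± 1.07, SD, n = 2). The COUP-TF genes were not counted as partners, and the receptor list does not hold the whole family. The ratio thus covers only that set and not all partners of RXR in these livers. The 2 LXR genes gave 41.6 and 44.9 TPM of that partner sum.

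All 3 retinoic acid receptor genes (RAR) were present at similar low levels. Rara was at 2.57 TPM in replicate 1 and 2.44 in replicate 2, Rarb at 2.04 and 1.71 TPM, and Rarg at 1.53 and 1.71 TPM. Rara held 41.7% ± 0.154 of the group, the lowest share of any leading gene among the 12 groups with more than 1 member. The value of Rarg depended on the deposited estimate. The authors' posterior mean was 3.71 TPM in replicate 1 and 4.87 in replicate 2, above that of Rara at 2.86 and 2.88 TPM, so Rarg led the group by that estimate, and their interval ran from 1.48 to 7.72 TPM and from 1.72 to 10.7 TPM. Most of the posterior share, 53%, went in replicate 1 to Rarg-206, a transcript of 111 nucleotides to which no read was assigned.

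Of the 3 listed receptor genes for drugs and vitamin D, only Nr1i2, which encodes the pregnane X receptor, reached 1 TPM. It was at 1.83 TPM in replicate 1 and 2.38 in replicate 2. Nr1i3, which encodes the constitutive androstane receptor, was at 0.72 and 0.50 TPM. The vitamin D receptor gene Vdr was at 0.12 and 0.25 TPM.

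Among listed receptors for fatty acids and their relatives, Pparg, the adipocyte regulator, was at 1.35 TPM in replicate 1 and 1.29 in replicate 2. Ppard, a widely expressed form, was at 0.64 and 0.75 TPM. Not every PPAR gene is on the list, so the leading PPAR gene of these livers is not settled here. Esrra, an orphan receptor known for mitochondrial genes, was at 1.27 and 1.70 TPM. Its relatives Esrrb, known from pluripotent cells, and Esrrg had 3 and 4 reads and 5 and 6 reads. Hnf4g, a relative of the hepatocyte factor gene Hnf4a, was at 0.28 and 0.29 TPM, while Hnf4a itself, a hepatoblast marker here, was at 9.42 and 8.65 TPM.

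The clock-linked receptors were low. The ROR proteins activate and the REV-ERB proteins repress shared targets such as Arntl, which encodes BMAL1. Rora was at 2.36 TPM in replicate 1 and 3.06 in replicate 2, and Rorb had 0 and 1 read. Nr1d2, which encodes REV-ERB beta, was at 1.10 and 1.02 TPM, just above the threshold, and Nr1d1, which encodes REV-ERB alpha, at 0.48 and 0.46 TPM. Just under the threshold lay Nr3c2, named above, and Nr6a1, which encodes the germ cell nuclear factor, at 0.72 TPM in both livers. By the authors' posterior mean both passed 1 TPM, Nr6a1 at 1.28 TPM in replicate 1 and 1.54 in replicate 2 and Nr3c2 at 1.15 and 1.30 TPM, which made 19 receptors in place of 17.

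The remaining orphan receptors were near or at 0. The immediate early genes Nr4a1 and Nr4a2 were at 0.15 and 0.17 TPM and at 0.18 and 0.24 TPM, and Nr4a3 had 0 reads in both livers. Nr0b1, which encodes DAX1 and is known from adrenal and gonad, had 8 and 4 reads. Nr5a1, which encodes the steroidogenic factor of the same organs, had 0 and 1 read. Nr2e1, a neural stem cell receptor gene, had 0 reads in both, with a floor of 0.0599 TPM in replicate 1 and 0.0863 in replicate 2.

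**Figure D2:**
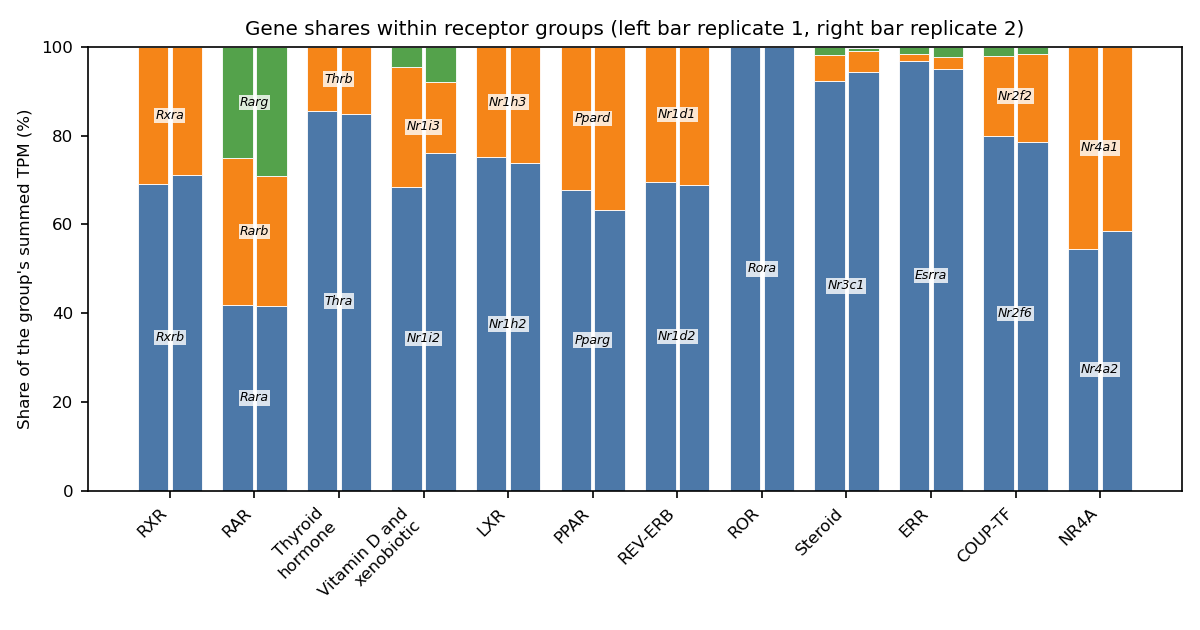
Share of each gene in the summed TPM of its receptor group, in percent, for the 12 groups with more than 1 listed gene, with replicate 1 as the left and replicate 2 as the right bar. The same gene led in both livers in 12 of 12 groups, with a mean share of 41.7% for Rara among the RAR genes and 93.4% for Nr3c1 among the steroid receptors.

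The leading gene was the same in both livers in 12 of 12 groups with more than 1 member, as the plot of shares within groups shows. From Nr1h2 through Nr2f6, Nr3c1 and Nr1h3 to Thra, the values of neighbouring genes did not overlap between livers. Further down, neighbours overlapped: Rxrb with Nr2f2, Rora with Rara, and Rxra with Nr1i2 and Rarb. Within each liver Rxrb lay above Nr2f2, although their values overlapped between livers. For the other pairs the order differed between livers and so does not exceed the spread of the 2 replicates.

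**Figure D3:**
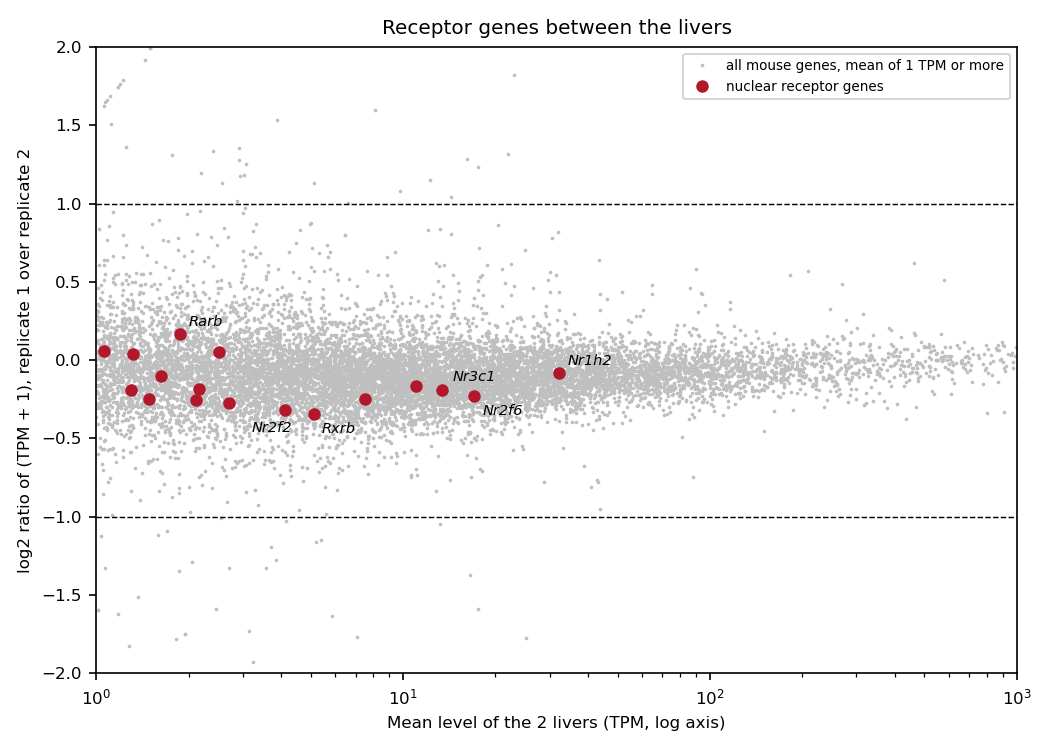
Log2 ratio of (TPM + 1), replicate 1 over replicate 2, against the mean level of the livers in TPM (log axis), for the 17 receptor genes whose mean reached 1 TPM (red) and all mouse genes at that level (grey; genes beyond the axes are not drawn). Dashed lines mark a 2-fold difference, and the receptors lay between -0.35 (Rxrb) and 0.17 (Rarb).

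Ratios between the livers show how far the replicates spread. As the 2 libraries form 1 group, no conditions could be tested and no p is given. Of the 17 receptor genes whose mean reached 1 TPM, 0 differed 2-fold on log2(TPM + 1), a scale that understates differences of low genes. Over all 11741 mouse genes at that level, 0.758% did. The receptor ratios ran from -0.35 for Rxrb to 0.17 for Rarb, replicate 1 over replicate 2, with a median of -0.19, beside -0.10 for all genes at that level. Of the 17, 13 were lower in replicate 1 (76.5%), beside 72.3% of all genes. With counts scaled by trimmed mean of M values (TMM), the medians were -0.09 for the receptors and 0.01 for all genes.

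Read shares gave a check that does not use transcript lengths. The ratio of a gene's share of mouse reads, replicate 1 over replicate 2, had a 95% counting interval that left out 1 for 10 of the 28 receptors with at least 10 reads in both livers. The same held for 38.7% of 14272 genes, so the receptors' share was near the background. Rarb and Esr1 were the 2 with a higher share in replicate 1, and the other 8 (Nr1h2, Nr2f6, Nr3c1, Thra, Thrb, Rxrb, Nr2f2 and Nr1i2) were lower there. Among all genes with such an interval, 1689 were higher and 3832 lower in replicate 1. Esr1 had the largest ratio, 2.68 (exact interval 1.43 to 5.39), from 48 and 13 reads, with both levels under 1 TPM. For Rarb the ratio was 1.24 (1.01 to 1.54), from 250 and 146 reads.

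**Figure D4:**
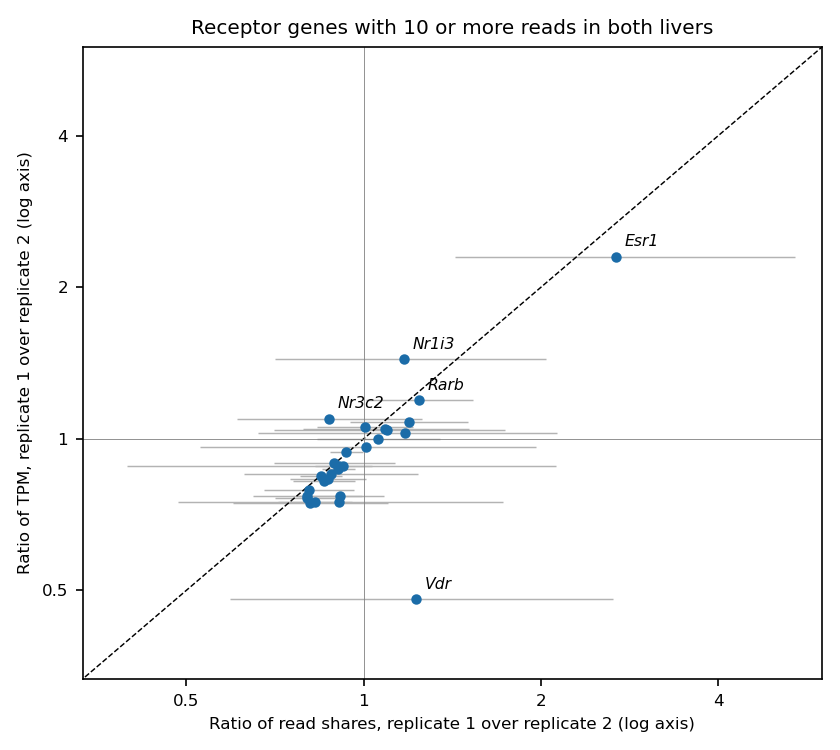
Ratio of TPM against ratio of read shares, replicate 1 over replicate 2, on log axes, for the 28 receptor genes with at least 10 reads in both livers. Bars are exact 95% counting intervals of the read share ratio, the dashed line marks equality, and Vdr lay farthest from it at 0.48 by TPM and 1.23 by read share.

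TPM and read shares pointed in opposite directions for 3 of the 31 receptors with both ratios, namely Vdr, Nr3c2 and Hnf4g. The same count was not made over all genes, so it cannot be called a trait of the receptors. Vdr was 0.48-fold by TPM and 1.23-fold by read share (0.59 to 2.66), from 22 reads in replicate 1 and 13 in replicate 2. Its deposited effective length was 4271 nucleotides in replicate 1 and 1758 in replicate 2. In replicate 1 all Vdr reads were assigned to Vdr-201. In replicate 2, 1.35 reads on Vdr-202, a transcript of 389 nucleotides, took 63.1% of the gene's TPM. For Nr3c2 the ratios were 1.10 by TPM and 0.87 by read share, and for Hnf4g 0.97 and 1.01.

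Transcript shares were examined for the 17 receptors that reached 1 TPM in both livers, of which Rarb and Nr1i2 had 1 annotated transcript. Among the other 15, the most used transcript was the same in both livers for 11 and differed for 4, namely Nr1h2, Nr1h3, Nr3c1 and Rara. Over all 8044 genes at that level with more than 1 transcript, 9.49% differed. The authors' intervals on transcript TPM did not overlap between the livers for 3 of 97 receptor transcripts, Nr2f2-201, Nr2f6-201 and Thra-202, beside 4.53% of all transcripts of such genes. All 3 were lower in replicate 1. Across the 15 genes, the share of the transcript leading in replicate 1 differed by a median of 5.23 percentage points.

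**Figure D5:**
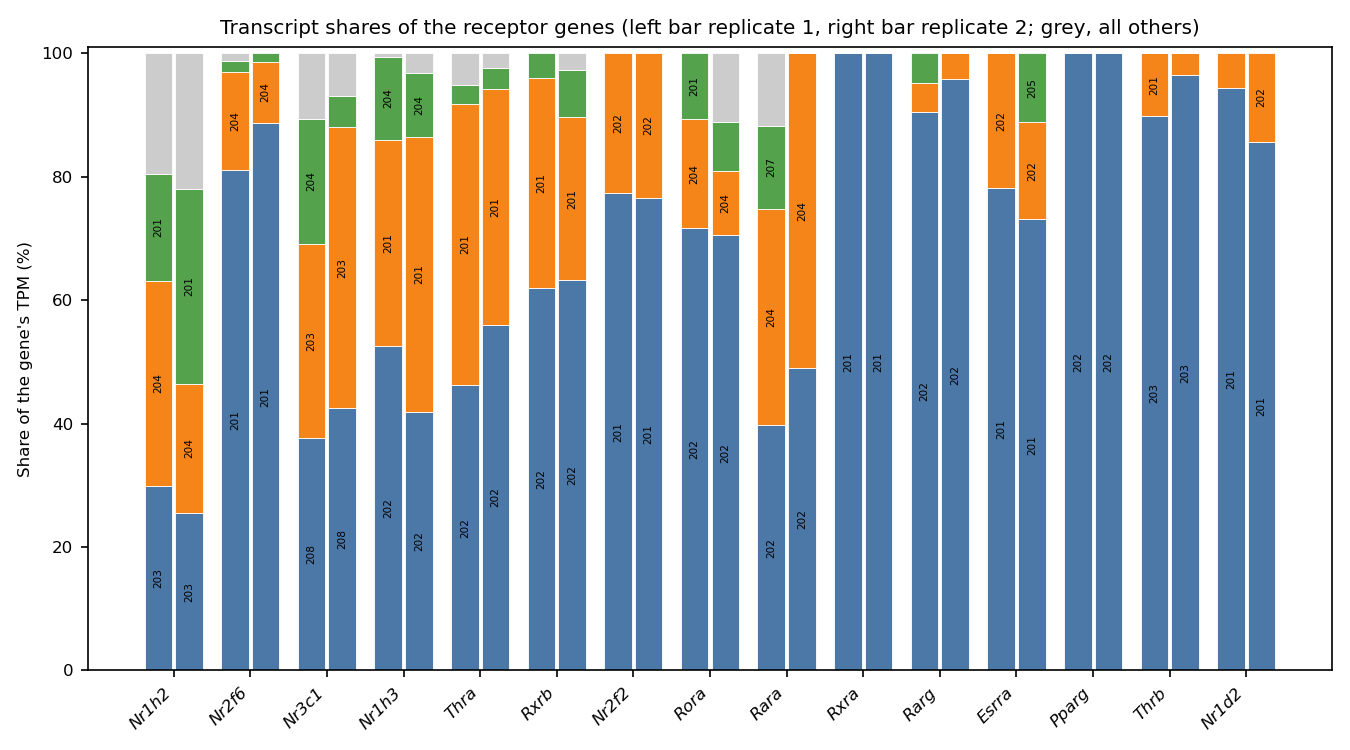
Share of each transcript in the TPM of its gene, in percent, for the 15 receptor genes that reached 1 TPM in both livers and have more than 1 annotated transcript, with replicate 1 as the left and replicate 2 as the right bar. Colours stand for the 3 transcripts with the highest mean share, grey for all others, and Rxra and Pparg show 1 transcript at 100% in both livers.

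Isoforms of several receptors are known to differ in function, and those of Thra, Thrb, Pparg, Rarg, Rora and Rxrb had the same leading form by TPM in both livers. Thra-202 encodes the hormone-binding TR alpha 1 of 410 residues and held 46.2% of Thra TPM in replicate 1 and 56.0% in replicate 2. Thra-201 encodes the variant TR alpha 2 of 492 residues, which does not bind thyroid hormone, and held 45.6% and 38.1%. The hormone-binding form was at 3.13 TPM in replicate 1 and 4.61 in replicate 2, while the variant was at 3.09 and 3.13 TPM. By reads the variant led in replicate 1, with 304 against 281 reads. Thrb-203, with a protein of 461 residues, held 89.8% and 96.4% of Thrb.

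All Pparg reads were assigned to Pparg-202, the form of 475 residues known from many tissues, 99 in replicate 1 and 66 in replicate 2. No read was assigned to Pparg-201, the form of 505 residues known from fat. By the authors' posterior shares, Pparg-201 held 15.8% in replicate 1 and 11.6% in replicate 2. Rarg-202, of 447 residues, held 90.5% and 95.8% of Rarg TPM, and Rarg-201, of 458 residues, 4.65% and 4.25%. By posterior shares Rarg-202 held 36.4% and 32.5% and did not lead, as Rarg-206 held 53% and 57.8%. Rora-202, the short form of 467 residues, held 71.6% and 70.6% of Rora, against 10.7% and 7.82% for Rora-201 of 523 residues.

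Rxrb-202, of 410 residues, held 62.0% of Rxrb in replicate 1 and 63.2% in replicate 2, and Rxrb-201, of 524 residues, 33.9% and 26.4%. For Rara the shares of Rara-202 (459 residues) were 39.8% and 49.0% and those of Rara-204 (462 residues) 35.0% and 51.0%, so the order of this pair differed between livers. In the other 3 genes whose leading transcript differed, several transcripts each held a large share. Nr1h2-204 led in replicate 1 with 33.3% and Nr1h2-201 in replicate 2 with 31.5%, and both encode 446 residues. Nr1h3-202 led in replicate 1 with 52.5% and Nr1h3-201 in replicate 2 with 44.5%, and both encode 445 residues. For Nr3c1, Nr3c1-208 led in replicate 1 with 37.7% and the longer Nr3c1-203, of 792 residues, in replicate 2 with 45.6%. By reads Nr3c1-203 led Nr3c1-208 in both livers, with 1037 against 352 in replicate 1 and 1205 against 317 in replicate 2. The authors' intervals overlapped between the livers for these leading transcripts, and by posterior mean shares the leading transcript differed for Nr1h2 and Nr1h3 alone.

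Several receptor genes overlap genes on the opposite strand. The sources used here do not say if counting took account of strand. Thra and Nr1d1 share 263 exonic bases at their 3 prime ends (chromosome 11, 98768157 to 98768419). Their deposited count SDs were equal, 1.86 reads for both genes in replicate 1 and 1.62 in replicate 2. Nr1i3 overlaps Tomm40l over 74.9% of its exonic bases, with an SD of 2.53 and 2.92 reads in both genes, and Nr2f6 overlaps Ocel1 over 54.4%, with 4.40 and 4.33. These SDs are small beside 1258 and 1078 reads for Nr2f6 and larger beside 41.0 and 25.4 reads for Nr1i3. Rarb overlaps Top2b over 34.1% of its annotated exonic bases, and the SD of both genes was 0.

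Cofactors and chaperones of the receptors had higher list medians than the receptors themselves. The median over coactivator genes was 5.29 TPM in replicate 1 and 6.37 in replicate 2, over corepressor genes 12.0 and 14.9 TPM, and over chaperone genes 116 and 124 TPM. Of the coactivators, 13 of 15 found reached 1 TPM in both livers, led by Ncoa4, also a ferritin receptor of red cell precursors, at 279 TPM in replicate 1 and 288 in replicate 2. Pprc1 was at 20.6 and 23.1 TPM, the Mediator subunit gene Med1 at 16.1 and 18.6 TPM, and Ncoa1 lowest at 0.46 and 0.71 TPM. All 10 corepressor genes reached 1 TPM, led by Gps2 at 67.2 and 74.6 TPM, Ncor1 at 44.5 and 53.7 TPM and Cops2 at 39.5 and 42.1 TPM, with Tbl1xr1 lowest at 2.23 and 2.20 TPM. All 10 chaperone genes of steroid receptors reached it too, led by Hspa8 at 910 and 934 TPM, Hsp90aa1 at 514 and 553 TPM and Hsp90ab1 at 416 and 459 TPM. Fkbp5, a chaperone cofactor that glucocorticoids induce, was lowest at 2.90 and 2.88 TPM.

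Among genes that carry or convert ligands, a plasma carrier was the highest for retinoids, thyroid hormone and steroids alike. Of 17 genes of retinoid handling, 7 reached 1 TPM in both livers, with the retinol carrier Rbp4 at 1247 TPM in replicate 1 and 1447 in replicate 2 and the retinal reductase Dhrs3 at 17.1 and 19.3 TPM. Cyp26c1, a retinoic acid hydroxylase, was at 0 TPM in both. For thyroid hormone 4 of 8 did, with the carrier Ttr at 629 and 638 TPM, the transporter Slc16a10 at 34.8 and 39.4 TPM and the carrier Serpina7 at 6.89 and 7.34 TPM. The deiodinase gene Dio1 and the transporter gene Slco1c1 were at 0 TPM. For steroids 4 of 9 found did, with the corticosteroid carrier Serpina6 at 1129 and 1342 TPM, Hsd17b2 at 54.5 and 49.0 TPM and Hsd11b1, which reactivates glucocorticoids, at 4.50 and 2.73 TPM. The aromatase gene Cyp19a1 was at 0 TPM.

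Textbook target genes of the receptors were listed to show their levels in the same livers, and no link to receptor activity was tested. Of LXR targets 5 of 7 reached 1 TPM in both livers, with Lpcat3 at 52.4 TPM in replicate 1 and 55.0 in replicate 2, Srebf1 at 30.5 and 40.5 TPM and the cholesterol exporter gene Abca1 at 9.80 and 10.7 TPM. The biliary sterol exporter gene Abcg5 was lowest at 0.27 and 0.34 TPM. Of glucocorticoid targets 6 of 9 did, led by Dusp1 at 21.1 and 24.6 TPM, Tsc22d3 at 8.64 and 8.73 TPM and Sgk1 at 8.37 and 7.56 TPM, while the gluconeogenic gene Pck1 was lowest at 0.14 and 0.11 TPM. Of PPAR targets 6 of 8 did, led by the lipid droplet gene Plin2 at 130 and 137 TPM, Lpl at 29.9 and 29.1 TPM and Cd36 at 16.4 and 15.0 TPM, with the adipocyte gene Adipoq at 0 TPM.

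The other target lists were lower. Of clock targets 5 of 9 reached 1 TPM in both livers, with Arntl at 3.45 TPM in replicate 1 and 3.85 in replicate 2, Cry1 at 3.57 and 3.44 TPM, Tef at 2.22 and 4.08 TPM and Bhlhe41 lowest at 0.10 and 0.14 TPM. Of retinoic acid targets 2 of 7 did, and Stra8, known from germ cells, was at 0 TPM in both livers. Of targets of the xenobiotic and vitamin D receptors 1 of 6 did, the drug-metabolising gene Cyp3a11 at 4.80 and 7.43 TPM. Abcb1a was at 0.41 and 0.44 TPM, Cyp2b9 at 0.24 and 0.35 TPM, and the vitamin D hydroxylase gene Cyp24a1 at 0 TPM.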

How the data were processed

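Total RNA above 200 nucleotides was used at 10 ng per library with ERCC spike-ins, per the labels. The authors deposited expected counts (estimated reads, not normalized), TPM and FPKM per gene and per transcript on mm10 with GENCODE M4, as the text file deposited with each library states. The aligner and counter used were not given in the sources used here. Per the file headers, the deposited tables also hold posterior means, count SDs in reads, 95% intervals on TPM and, per transcript, its percent of the gene's TPM.

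GENCODE M21, on the same build, gave symbols, positions and transcript names, matched on identifiers without version. Members and gene lists were chosen with earlier results of these data known. Of the other lists, the 3 highest genes and the lowest are named, apart from some genes not reported here. Detection was 1 TPM, and ratios used log2(TPM + 1), replicate 1 over replicate 2. Intervals were exact Poisson for levels and exact binomial (Clopper-Pearson, 95%) for read share ratios, and floors were set at 3 reads. Libraries held 37059776 (replicate 1) and 26908926 (replicate 2) counts on mouse genes. Spike-ins together with rows of numeric identifiers held 7.35% and 6.72% of all counts. Scaling factors came from edgeR 4.0.16 (TMM) and DESeq2 1.42.0, on rounded counts and with no test. The fold procedure was run on simulated counts that held counting error only and changes larger than 2-fold. Genes were scored there at a mean of 5 TPM or more. That run cannot show how well a 2-fold difference is found in lower genes or between real replicates. R 4.3.3 and Python 3.11.15 were used, with scipy 1.17.1, pandas 2.3.3 and, for plots, matplotlib 3.10.9.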

Additional observations from a re-analysis of the deposited data

How the results depend on the processing

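Of the 38 receptor genes, 9 reached 2 TPM in both livers and 28 had at least 10 reads in both, against 17 at 1 TPM. The median level of 0.71 TPM became 0.725 by FPKM, 1.01 by posterior mean TPM, 1.29 with globin genes left out of the TPM total, 0.786 over mouse rows alone and 2.51 over genes at 1 TPM in both, and leaving out a replicate gave 0.72 to 0.725. The summed level of 113 TPM became 124 by posterior mean, 206 without globin genes and 126 over mouse rows. RXR over the chosen set of partners, 0.114 by TPM, was 0.170 by reads, which favour long transcripts. The median log2 ratio of -0.19 was -0.026 with no filter, and the same most used transcript was found in 3 of 6 genes whose mean reached 5 TPM, against 11 of 15. With a pseudocount of 0.1 and no filter, chosen after seeing the data, 0 of 38 receptors differed 2-fold, beside 3.85% of 43346 mouse genes. The median receptor ratio at that setting was -0.12. No setting tried turned a median ratio positive or gave a 2-fold receptor, but every setting added a pseudocount. With 1 TPM added, a gene under 1 TPM in both livers cannot reach 2-fold. By plain TPM, replicate 1 over replicate 2, Esr1 was 2.3-fold, Vdr 0.48-fold, Esrrb 0.4-fold and Esrrg 0.5-fold, all under 1 TPM. By posterior mean, 11 of the 33 receptors above 0 TPM were over 1.5 times higher. Of these only Rarg, which then led the RAR genes, had reached 1 TPM in both livers by TPM. Also among the 11 were Nr6a1 and Nr3c2, which brought the count reaching 1 TPM in both livers to 19. The same count was not made over all genes, so it cannot be called a trait of the receptors. No paired analysis was possible because there is 1 group. With 2 libraries, an SD is a rough measure of the spread, and genes with few reads have wide counting intervals.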
